A study of Mus musculus with 14 samples.

Results

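Mature neutrophil genes are described here in spleen RNA of mice with and without a working STING protein. The set has 9 genes, S100a8, S100a9, Csf3r, Cxcr2, Fpr1, Fpr2, Retnlg, Mmp9 and Padi4, out of 24909 genes that were tested. Members were chosen by name as genes of mature neutrophils, and a probe was assigned to a member when its accession is listed by RefSeq under that symbol. All 9 genes were found, on 12 probes: Fpr2, Mmp9 and Padi4 had 2 probes each and the other 6 genes had 1. Each of the 12 probes was well above background on all 14 arrays and none was saturated, so no member was lost or kept because of a filter on dim signal.

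The study asked how loss of STING changes the immune response in collagen-induced arthritis, in which mice are immunised with type II collagen. Splenocyte RNA came from 7 WT mice and 7 Sting gt/gt mice, all of the C57BL/6 strain. Induction of arthritis began at 10 to 14 weeks of age, and each mouse was measured on 1 Agilent array of 62976 spots labelled with Cy3. Both groups had received chicken type II collagen (CII) with complete Freund's adjuvant (CFA), and their spleens were taken 2 weeks after that first injection. No array of a mouse left without immunization was part of the series, so all comparisons are between immunised mice. The WT group was injected C57BL/6 mice with an intact Sting gene. The Sting gt/gt group carried the golden ticket allele on both copies, a change made by the mutagen ENU that leaves mice without functional STING protein. These mutants came from another colony than the purchased WT mice, and nothing in the sources used here says that the groups were littermates. Red cells were lysed in the study's spleen preparations, so the RNA is that of mixed white cells and whatever precursors remained.

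Neutrophils are short-lived phagocytes that are made in the bone marrow and, in mice, also in the spleen. They kill microbes with granule enzymes, with oxidants and by throwing out webs of chromatin, and complete Freund's adjuvant is a strong stimulus for making more of them. A neutrophil makes most of its granule proteins early, as a precursor. Many of its receptors and cytosolic proteins are turned on late, when it is ready to leave its place of birth. In a bulk sample of splenocytes, fewer neutrophils and less of an RNA in each neutrophil cannot be told apart.

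Levels below are log2 values of the background-corrected spot intensity with the 75th percentile of each array set to 0, so that 1 unit is a doubling. That percentile lay between 562 and 766 intensity units. Between 30783 and 34400 of 56605 probes were well above background on an array. The scanner files placed replicates 1 to 3 of both groups on scan day 1 and replicates 4 to 7 on scan day 2. Scan day was therefore balanced between the groups, and each comparison is also given within each day. On scan day 2 the 4 Sting gt/gt arrays shared 1 slide and the WT arrays were on 2 others, so slide and genotype cannot be told apart on that day. Sting1 RNA, the product of the mutated gene, was at 2.35 to 2.85 in WT (median 2.64) and at 2.45 to 2.77 in Sting gt/gt (median 2.65). The groups overlapped, and since the allele changes the protein, this level does not check the labels.

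Over all 14 arrays the genotypes overlapped for each of the 9 genes, and did not overlap for 0.0442% of all genes. None of the 9 was past an unadjusted p under 0.05 in limma, the threshold used for the study's heat map, against 3.48% of all genes tested (464 higher and 404 lower in Sting gt/gt). None was past a Benjamini-Hochberg adjusted p under 0.05, a bar that 1 gene (0.00401%) passed. The methods' t-test called 0 of the 9 as well. Limma with array weights and an intensity trend called Cxcr2 and Mmp9, in a fit that called 4311 of all 24909 genes. The log2 fold changes ran from -0.06 for Csf3r to 0.22 for Mmp9, with a median of 0.10, beside a median of 0.02 over all genes. With replicate numbers as a block, which the scan days pair, the count over all genes went from 868 to 1415 and that of the 9 stayed at 0. The widest 95% confidence interval, that of S100a8, ran from -0.55 to 0.71 in this fit, which leaves out the scan day. Within days it was narrower for S100a8, at -0.20 to 0.47 on day 1 and -0.22 to 0.31 on day 2.

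**Figure D1:**
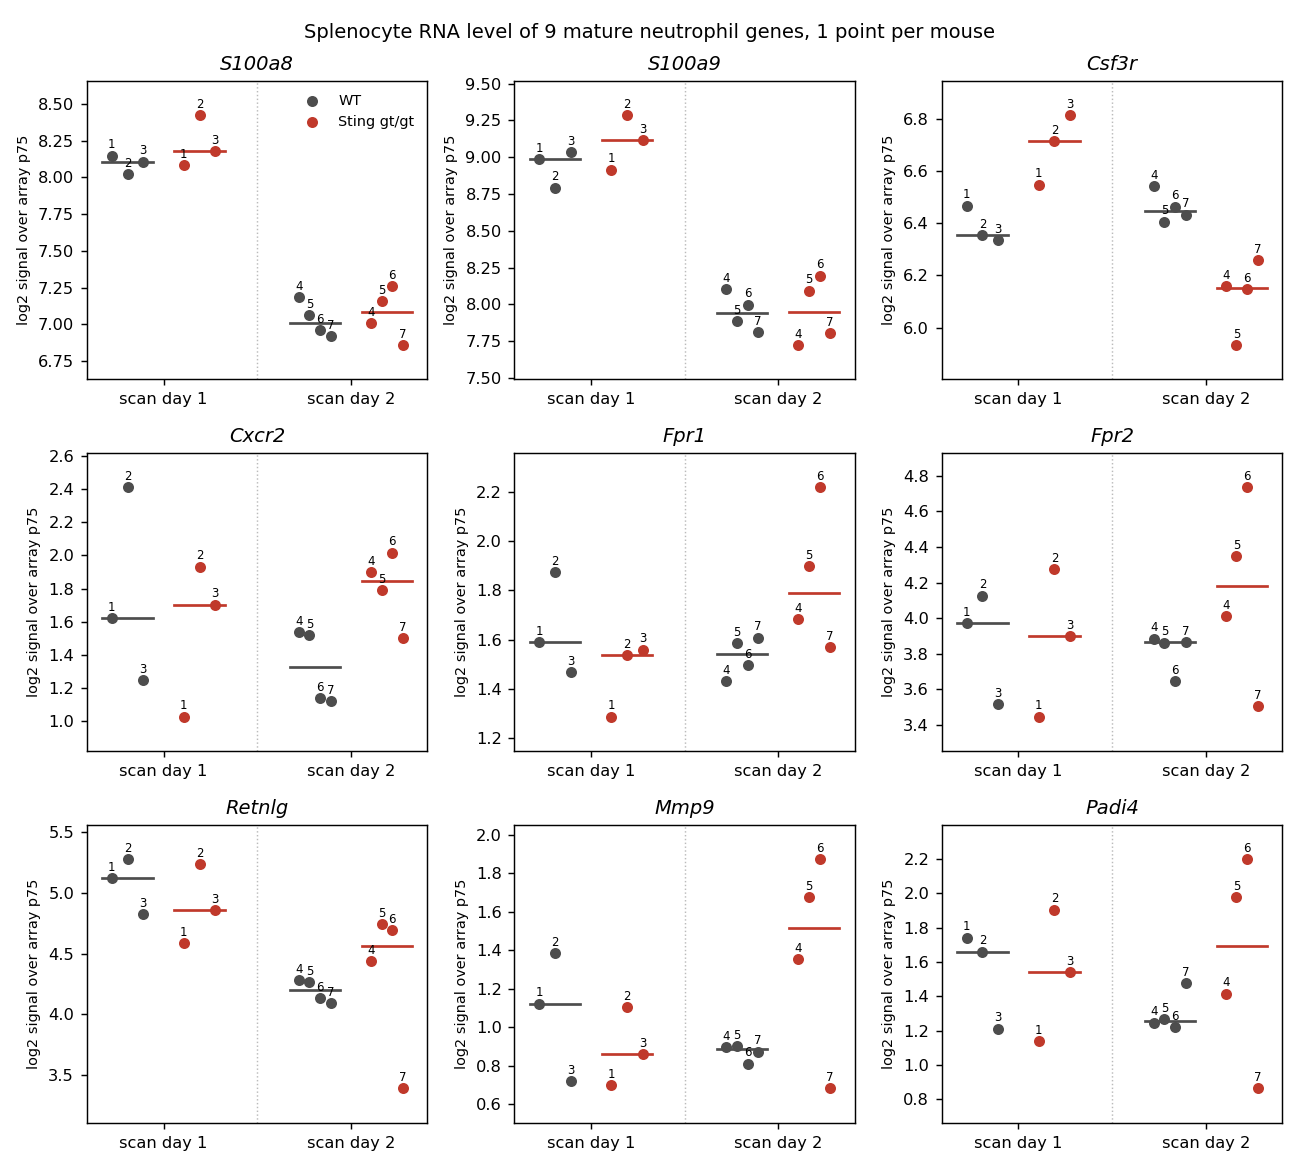
Log2 signal of each gene over the array's 75th percentile (vertical axis), 1 point per mouse with its replicate number, for WT (grey) and Sting gt/gt (red) on each scan day; horizontal bars are medians. For S100a8 and S100a9 every mouse of scan day 2 lies below every mouse of scan day 1, which are other mice. Csf3r separates the genotypes in opposite directions on the days, and Sting gt/gt replicate 7 lies far under replicate 6 for Fpr1, Fpr2, Mmp9 and Padi4.

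The plot of levels by mouse shows that the set does not behave as a block. S100a8, S100a9 and Retnlg were lower on scan day 2, and Csf3r separated the genotypes in opposite directions on the days. Each of these is taken in turn below, by the role of the gene.

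S100a8 and S100a9 encode the calcium-binding subunits of calprotectin, the main cytosolic protein complex of neutrophils, and their genes are neighbours on chromosome 3 with no listed gene between them. S100a8 was at 6.92 to 8.15 in WT (median 7.18) and at 6.86 to 8.42 in Sting gt/gt (median 7.26). The ranges overlapped almost fully, with a log2 fold change of 0.08 (exact permutation p = 0.712, two-sided). S100a9 was at 7.81 to 9.03 in WT (median 8.10) and 7.73 to 9.28 in Sting gt/gt (median 8.20). Its groups also overlapped, with a log2 fold change of 0.07 (exact permutation p = 0.764, two-sided). Within day 1 the log2 fold changes were 0.13 for S100a8 and 0.17 for S100a9, and within day 2 they were 0.04 and 0.003.

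What divided the S100a8 and S100a9 values was the scan day. S100a8 was between 8.02 and 8.42 on the 6 arrays of day 1 and between 6.86 and 7.26 on the 8 arrays of day 2. No mouse of day 2 reached the lowest mouse of day 1, in either genotype. The level on day 2 was 2.16-fold lower for S100a8 (log2 difference -1.11, limma adjusted p = 4.15e-07) and 2.10-fold lower for S100a9 (log2 difference -1.07, limma adjusted p = 1.94e-06). With genotype in the model, 38.8% of all genes differed between the days at an adjusted p under 0.05, 17.1% higher and 21.6% lower on day 2. Of the 9 genes 3 did so, all lower on day 2. The scan days of S100a8 and S100a9 did not overlap, day 2 being the lower. Scan days did not overlap for 15.7% of all genes, with day 2 lower for 10.1%. Quantile normalization left both differences past the threshold but took S100a8 to -0.70 and S100a9 to -0.31. In the deposited table they were -0.16 and -0.13 and neither was past it. Replicates 1 to 3 and 4 to 7 may differ in more than the day of the scan, since the headers give only the scan, and what set the days apart was not tested.

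Within each day the levels of S100a8 and S100a9 went together from mouse to mouse. On day 1 Pearson's r was 0.93 (exact permutation p = 0.00417) and Spearman's rho 0.94 (exact permutation p = 0.0167) over 6 mice. On day 2 they were 0.82 (exact permutation p = 0.0174) and 0.81 (exact permutation p = 0.0218) over 8 mice. Adjusted over these 4 tests, the values were 0.0167, 0.0218, 0.0218 and 0.0218. Without the 2 mice farthest from the median of S100a8, r was 0.80 on day 1 and 0.70 on day 2. Because the 2 days form separate clusters, no pooled correlation is given.

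The RefSeq promoters (build GRCm38.p6, 250 bases before to 50 after the gene's start) are shown for the 3 genes that were lower on day 2, because these moved together between days, and for Csf3r, because its genotype difference turned between days. They lie at chr3:90668821-90669120 on the plus strand for S100a8, chr3:90695672-90695971 on the minus strand for S100a9, chr16:48872358-48872657 on the plus strand for Retnlg and chr4:126024409-126024708 on the plus strand for Csf3r. Capitals mark matches, on either strand, to 4 short motifs: the TATA box TATAAA, the C/EBP motif TTGCNNAA, the PU.1 motif GAGGAAG and the AP-1 motif TGANTCA.
S100a8: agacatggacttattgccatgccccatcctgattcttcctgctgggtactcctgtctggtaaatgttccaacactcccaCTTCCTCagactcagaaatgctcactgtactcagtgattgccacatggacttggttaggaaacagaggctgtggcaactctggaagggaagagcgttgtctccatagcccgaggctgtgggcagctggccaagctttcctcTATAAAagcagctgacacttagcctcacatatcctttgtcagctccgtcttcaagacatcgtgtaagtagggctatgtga
S100a9: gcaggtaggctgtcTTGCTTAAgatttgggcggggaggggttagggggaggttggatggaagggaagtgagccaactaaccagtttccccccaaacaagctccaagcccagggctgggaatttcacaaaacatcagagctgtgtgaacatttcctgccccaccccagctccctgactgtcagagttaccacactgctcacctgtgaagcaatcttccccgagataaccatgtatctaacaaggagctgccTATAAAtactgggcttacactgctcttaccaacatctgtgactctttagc
Retnlg: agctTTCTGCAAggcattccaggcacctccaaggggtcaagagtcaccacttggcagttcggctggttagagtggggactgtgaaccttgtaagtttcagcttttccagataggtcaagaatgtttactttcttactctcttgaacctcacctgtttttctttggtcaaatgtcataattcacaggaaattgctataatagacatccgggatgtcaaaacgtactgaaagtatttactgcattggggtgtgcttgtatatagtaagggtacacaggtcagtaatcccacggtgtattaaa
Csf3r: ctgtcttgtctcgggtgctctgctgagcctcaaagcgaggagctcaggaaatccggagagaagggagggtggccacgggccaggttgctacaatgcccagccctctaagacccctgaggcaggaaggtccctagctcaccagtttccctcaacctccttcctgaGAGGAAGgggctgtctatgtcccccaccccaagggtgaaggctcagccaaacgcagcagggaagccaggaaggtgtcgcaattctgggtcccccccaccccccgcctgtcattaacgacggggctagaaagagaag
The table of promoters matched 8 of the 9 genes, and Mmp9 has no entry in it. TATAAA was in 5 of the 8 promoters (S100a8, S100a9, Fpr1, Fpr2 and Padi4) and in 13.6% of all 32851 promoters. TTGCNNAA was in S100a9 and Retnlg and in 10.8% of all. GAGGAAG was in S100a8, as its reverse complement, and in Csf3r, and in 13.6% of all. TGANTCA was in Padi4 alone of the 8, and in 7.81% of all. These are matches of letters, counted wherever they lay in the promoter, so TATAAA need not mark a working TATA box. They say nothing about binding.

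Retnlg encodes resistin-like gamma, a small cysteine-rich peptide secreted by mouse myeloid cells. It was at 4.09 to 5.28 in WT (median 4.28) and at 3.39 to 5.24 in Sting gt/gt (median 4.69). The groups overlapped and the log2 fold change was -0.01 (exact permutation p = 0.984, two-sided). Within days it was -0.18 on day 1 and 0.12 on day 2. On day 2 Retnlg was 1.66-fold lower than on day 1 (log2 difference -0.73, limma adjusted p = 0.00764), with some overlap between the days. In the deposited table the difference was -0.36 and not past the threshold. The 4 WT mice of day 2 were within 4.09 to 4.28, and 3 of the 4 Sting gt/gt mice were above all of them. The remaining Sting gt/gt mouse, replicate 7, was at 3.39, the lowest of the 14.

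Csf3r encodes the receptor for granulocyte colony-stimulating factor, the cytokine that drives neutrophil production. Its level was 6.34 to 6.54 in WT (median 6.43) and 5.93 to 6.81 in Sting gt/gt (median 6.26). The WT mice thus lay inside the wider range of the Sting gt/gt mice, and the log2 fold change was -0.06 (exact permutation p = 0.635, two-sided). This wider range had a simple structure: all Sting gt/gt mice of day 1 were above all WT mice, and all Sting gt/gt mice of day 2 were below all WT mice.

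On day 1 Csf3r was at 6.34, 6.35 and 6.47 in WT and at 6.55, 6.71 and 6.81 in Sting gt/gt, a log2 fold change of 0.31. The unadjusted limma p was 0.0589, and the exact permutation p was 0.10, the smallest that 3 against 3 can give. On day 2 it was 6.41 to 6.54 in WT and 5.93 to 6.26 in Sting gt/gt, a log2 fold change of -0.34. There the unadjusted limma p was 0.00846, the limma adjusted p 0.101, and the exact permutation p 0.0286, the smallest that 4 against 4 can give. The difference between these effects was -0.64, with an unadjusted limma p of 0.000771 and an adjusted p of 0.0585, which misses the threshold. Groups that do not overlap were found for 9.21% of all genes on day 1 (5.97% higher, 3.24% lower) and for 14.7% on day 2 (7.31% higher, 7.43% lower), and for 1.67% on both days in opposite directions. Csf3r was the only member in any of these counts. Both signs held under quantile normalization, median centring, no scaling, normexp and in the deposited table. The B cell marker list, described with the other lists below, turned in the same sense. Of 30 other mature neutrophil genes, the effect on day 2 minus that on day 1 was above 0 for 26 and below 0 for 4. The lowest was that of Itgam (-0.60), with 0.22 on day 1 and -0.38 on day 2. The part of these genes and of B cells in the Csf3r values was not tested.

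Cxcr2 encodes the chemokine receptor that draws neutrophils out of the marrow and towards CXC chemokines. Over all arrays it was at 1.12 to 2.41 in WT (median 1.52) and 1.03 to 2.02 in Sting gt/gt (median 1.79). The groups overlapped, with a log2 fold change of 0.18 (exact permutation p = 0.403, two-sided). On day 1 the 3 WT mice alone spanned 2.23-fold and the log2 fold change was -0.21. On day 2 WT mice were at 1.12 to 1.54 and Sting gt/gt mice at 1.502 to 2.02, and 3 of the 4 Sting gt/gt mice were above every WT mouse. The day 2 log2 fold change was 0.47 (unadjusted limma p = 0.0123, limma adjusted p = 0.117, exact permutation p = 0.0857).

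Fpr1 and Fpr2 encode receptors for formylated peptides, which are shed by bacteria and by damaged mitochondria, and are neighbours on chromosome 17 with no listed gene between them. Fpr1 was at 1.43 to 1.87 in WT (median 1.58) and at 1.29 to 2.22 in Sting gt/gt (median 1.57). The groups overlapped, with a log2 fold change of 0.10 (exact permutation p = 0.467, two-sided). All 3 Sting gt/gt mice of day 1 were below the WT median of that day and all 4 of day 2 were above theirs. Its log2 fold changes were -0.18 on day 1 and 0.31 on day 2, with exact permutation p of 0.40 and 0.0857. The difference between them was 0.50 (95% confidence interval 0.03 to 0.96, limma adjusted p = 0.254). Fpr2 was at 3.52 to 4.13 in WT (median 3.87) and 3.45 to 4.74 in Sting gt/gt (median 4.01). Its groups overlapped, with a log2 fold change of 0.19 (exact permutation p = 0.337, two-sided). The other Fpr2 probe gave 0.20 and tracked the first at r = 0.95 over the arrays. Within days the first probe gave 0.003 on day 1 and 0.34 on day 2, and the other gave 0.13 and 0.25.

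Mmp9 encodes gelatinase B, a collagen-cleaving enzyme stored in the late granules of neutrophils. It was at 0.72 to 1.39 in WT (median 0.90) and at 0.68 to 1.87 in Sting gt/gt (median 1.104). The groups overlapped, with a log2 fold change of 0.22 (exact permutation p = 0.289, two-sided). On day 2 the 4 WT mice were within 0.81 to 0.90, a spread of 1.07-fold. Of the Sting gt/gt mice of that day 3 were above all of them and replicate 7, at 0.68, was below all of them. The day 2 log2 fold change was 0.53 (unadjusted limma p = 0.0452, limma adjusted p = 0.205, exact permutation p = 0.143). On day 1 it was -0.19 (unadjusted limma p = 0.390, exact permutation p = 0.40). The other Mmp9 probe gave -0.27 on day 1 and 0.52 on day 2, there with an unadjusted limma p of 0.0926. It tracked the first at r = 0.92.

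Padi4 encodes the enzyme that turns arginine of histones into citrulline, a step in the release of chromatin webs. It was at 1.21 to 1.74 in WT (median 1.27) and at 0.86 to 2.20 in Sting gt/gt (median 1.54). The groups overlapped, with a log2 fold change of 0.17 (exact permutation p = 0.402, two-sided). Its probes disagreed within days: the brighter gave -0.01 on day 1 and 0.31 on day 2, and the other gave 0.34 and 0.01. They tracked each other at r = 0.75, less closely than the pairs of Fpr2 and Mmp9.

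**Figure D2:**
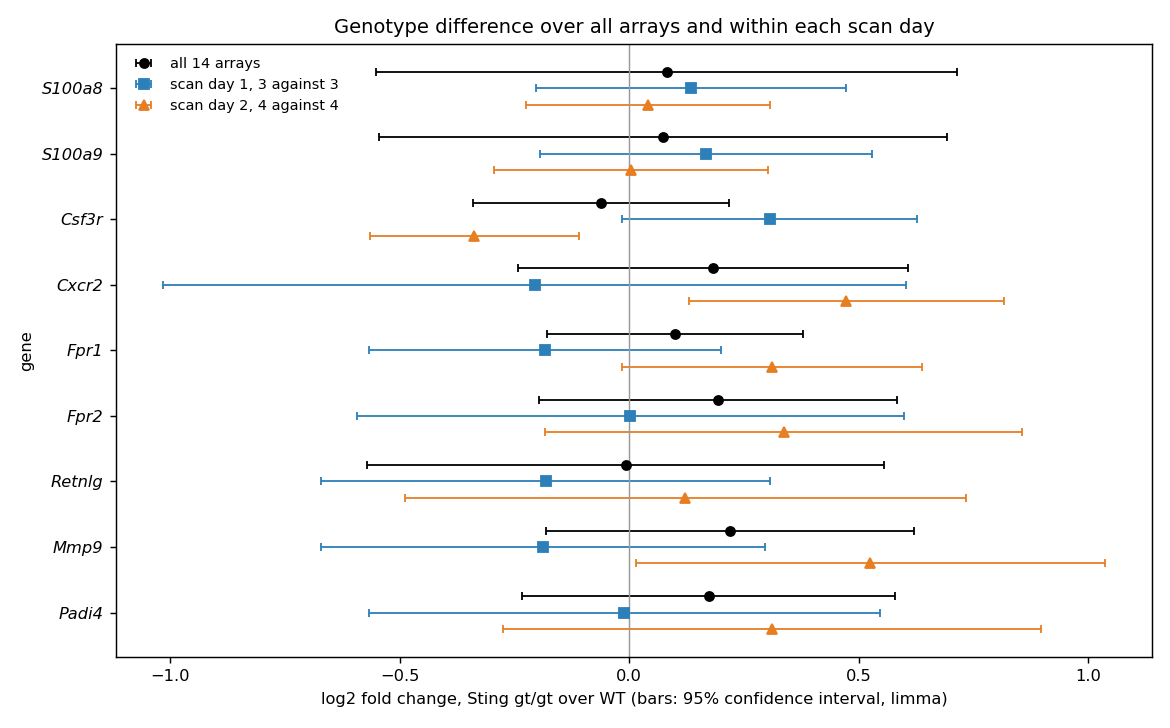
Log2 fold change of Sting gt/gt over WT (horizontal axis) with its 95% confidence interval from limma for each gene, over all 14 arrays (circles), on scan day 1 (squares) and on scan day 2 (triangles). The intervals of all 9 genes cross 0 over all arrays and on day 1, and on day 2 those of Csf3r, Cxcr2 and Mmp9 do not.

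Counted by day, 0 of the 9 genes were past an unadjusted p under 0.05 on day 1, where 3.86% of all genes were (700 higher, 261 lower). Normexp called Csf3r there, and the 3 against 3 mice allow no exact p under 0.10. On day 2, 3 of the 9 were, Cxcr2 and Mmp9 higher and Csf3r lower in Sting gt/gt, where 23.3% of all genes were (11% higher, 12.3% lower). None of the 9 passed the adjusted threshold on either day, which 1.69% of all genes did on day 2. The median log2 fold change of the 9 was -0.01 on day 1 and 0.31 on day 2, beside 0.02 over all genes on each day. Leaving out 1 array took these medians from -0.20 to 0.18 on day 1 and from 0.12 to 0.43 on day 2. For the difference between days, 2 of the 9 were past an unadjusted p under 0.05 (Csf3r and Fpr1), beside 18% of all genes, and none was past an adjusted p under 0.05, beside 0.763%. The plot of fold changes by day shows these intervals. Under quantile normalization, no scaling or the deposited table, Mmp9 was not past the threshold on day 2, while Csf3r and Cxcr2 were. Its log2 fold change was 0.48, 0.48 and 0.49 in these settings, beside 0.53 in the main one. Median centring called 4 of the 9 on day 2, adding Fpr1 (0.36), and normexp called 3 of the 9 for the difference between days, adding Mmp9 (0.75).

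The counts and medians within a day rested much on single mice. Among the 4 Sting gt/gt mice of that day, replicate 7 was the lowest for 7 of the 9 genes and replicate 6 the highest for 7. Their distance was 2.35-fold for Fpr2, 2.28-fold for Mmp9 and 2.52-fold for Padi4, whereas the 4 WT mice of the same day spanned 1.18-fold, 1.07-fold and 1.20-fold. Csf3r ran the other way, with replicate 7 the highest of the Sting gt/gt mice of that day. Without Sting gt/gt replicate 7, 7 of the 9 genes were past an unadjusted p under 0.05 on day 2, as were 6985 of all genes. This mouse was left out only once its values were known. Mmp9 (0.76, limma adjusted p = 0.0286) and Cxcr2 (0.57, limma adjusted p = 0.0496) then also passed the adjusted threshold, which 1883 of all 24909 genes did without this mouse and 421 with it. Retnlg (0.43), Fpr1 (0.40), Fpr2 (0.55) and Padi4 (0.56) were higher and Csf3r (-0.38) lower at the unadjusted threshold only. S100a8 (0.11) and S100a9 (0.05) were not past either. Leaving out any of the other 7 arrays of day 2 instead lost the Mmp9 call and kept Csf3r and Cxcr2. Without Sting gt/gt replicate 6, Mmp9 was at 0.37, Fpr1 at 0.19, Fpr2 at 0.14 and Padi4 at 0.12. The array of replicate 7 had a 75th percentile of 649 and 31990 probes well above background, inside the range of the others. On day 1, Sting gt/gt replicate 1 was the lowest of its group for all 9 genes, and without it the median of the 9 was 0.18 and Csf3r (0.38) was past the unadjusted threshold.

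The 9 genes could be grouped by how they varied between mice. To describe this apart from genotype and day, the mean of each genotype and day was subtracted from the 14 values. Among Cxcr2, Fpr1, Fpr2, Retnlg, Mmp9 and Padi4 the 15 pairwise correlations then ran from 0.57 to 0.96 (median 0.86), the highest between Fpr2 and Padi4. Without Sting gt/gt replicates 6 and 7, a choice made after the data were seen, they ran from 0.54 to 0.96 (median 0.82), so the common variation did not rest on those mice. S100a8 and S100a9 were correlated with these genes at 0.20 to 0.77 (median 0.55). Csf3r was correlated with the other 8 genes at -0.31 to 0.19 (median -0.08). Without the same 2 mice, the first of these ran from 0.02 to 0.69 (median 0.38) and the second from -0.02 to 0.37 (median 0.14), so both depended on them in part. All of these are descriptions over the same 14 arrays, with no test.

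**Figure D3:**
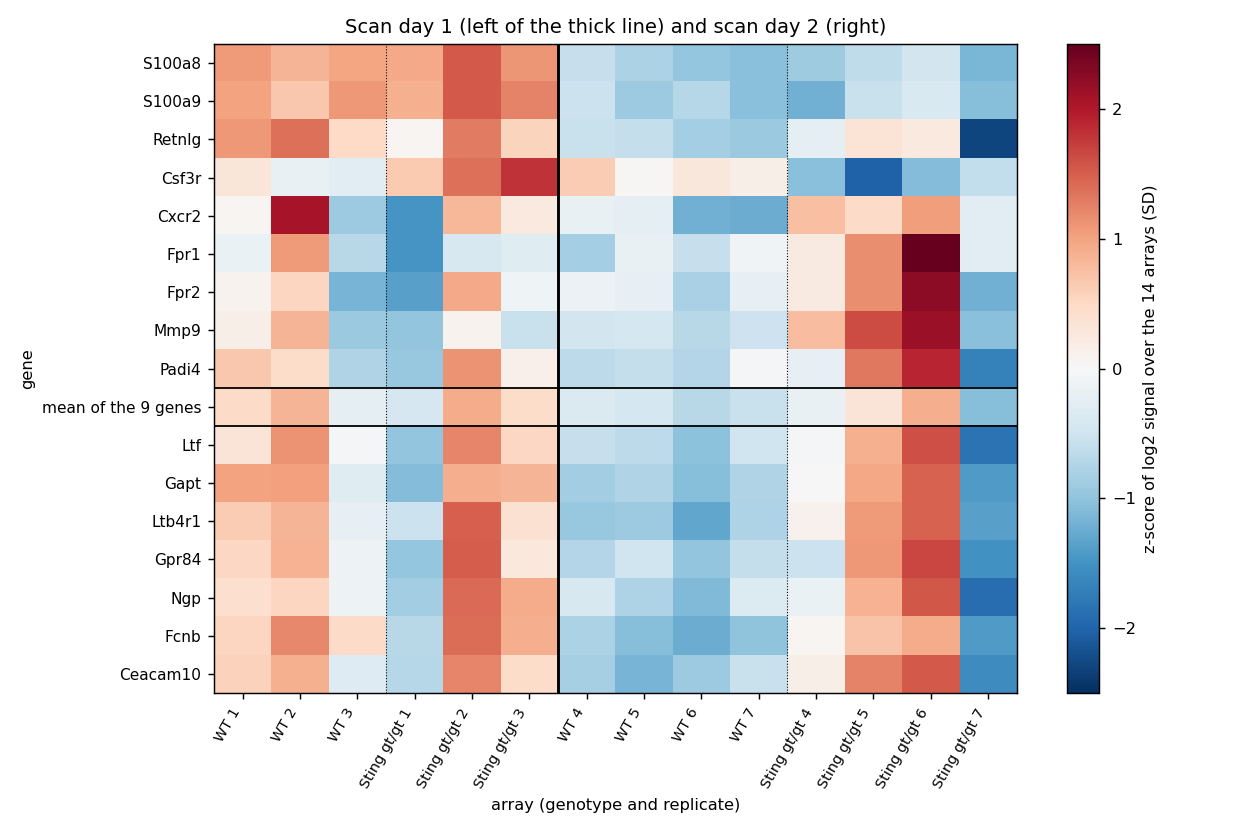
Z-score of the log2 signal over the 14 arrays (colour, in SD) for the 9 genes, for their mean and for 7 other genes much like that mean; columns are arrays by genotype and replicate, and the thick line parts scan day 1 from scan day 2. On day 2, Sting gt/gt replicate 6 is above replicate 7 for every gene shown but Csf3r.

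Genes closely like the mean z-score of the 9 over the 14 arrays included several further neutrophil genes. Ltf, the iron-binding lactoferrin of secondary granules, came first (r = 0.96), and it was close within day 1 (0.96) and within day 2 (0.99). Also close were Gapt, an adaptor of haematopoietic cells (0.96), Ltb4r1, the leukotriene B4 receptor (0.95) and Gpr84, a receptor for medium-chain fatty acids (0.95). Ngp (0.95) encodes a granule protein of neutrophils, Fcnb (0.94) a ficolin of granules, and Ceacam10 (0.94) a cell adhesion molecule. Once genotype and day means were subtracted, these 7 correlations lay between 0.94 and 0.97. The genes were picked for this correlation over the same 14 arrays, so none of these values is a separate test of it. The plot of z-scores shows these genes mouse by mouse.

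Other neutrophil genes gave a like account of genotype. Of 32 other genes of mature neutrophils 30 were tested (Ly6g and BC100530 had no tested probe under those symbols), and 27 of the 30 had a log2 fold change above 0, with a median of 0.23, as had 13565 of all 24909 genes. Only 2 were past an unadjusted p under 0.05, both higher, beside the 464 of all genes that were: Trem3, a receptor that amplifies inflammatory signals (0.50, unadjusted limma p = 0.0420, exact p = 0.0653), and Stfa3, a stefin that blocks cysteine proteases (0.53, unadjusted limma p = 0.0183, exact p = 0.0297). Slpi, an inhibitor of neutrophil elastase and the brightest of that list, was at 0.38 (unadjusted limma p = 0.0558, exact p = 0.0717) and not past the threshold. The Trem3 call was lost with the replicate block, in the t-test and in 10 of 14 fits with an array left out. Slpi was called with scan day as block and with array weights and an intensity trend. All 14 tested precursor genes were above 0 (median 0.23) and none was past the threshold, including Camp, the cathelicidin (0.18), Ltf (0.13) and Mpo, the myeloperoxidase of early granules (0.33). The 6 subunits of the NADPH oxidase, which makes the oxidants, were also above 0 (median 0.14), with none past it. Of ligands and partners of the 9 genes 13 of 18 were tested, and none was past the threshold (median 0.09). The genes Csf3, Cxcl2, Cxcl3, Fpr3 and Fpr-rs3 were not among the genes tested. Medians of this kind stand beside 0.02 over all genes, and genes that vary together from mouse to mouse do not count as separate evidence.

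The other neutrophil lists were also read by day, with no test between lists. On day 1 the medians were -0.01 for mature genes, 0.02 for precursor genes and -0.03 for the oxidase, and 0 genes of these lists were past an unadjusted p under 0.05. On day 2 they were 0.40, 0.38 and 0.24. Past the threshold on that day were 11 mature genes higher and 1 lower, 2 precursor genes higher, none of the oxidase, and 4 ligands and partners higher, beside the shares of all genes given above. Within the mature list only Slpi passed the adjusted threshold (0.80, limma adjusted p = 0.0469, exact permutation p = 0.0286, the smallest possible), with no overlap of the groups. With replicate numbers as a block, 0 of all genes passed it on day 2, so this call was lost.

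**Figure D4:**
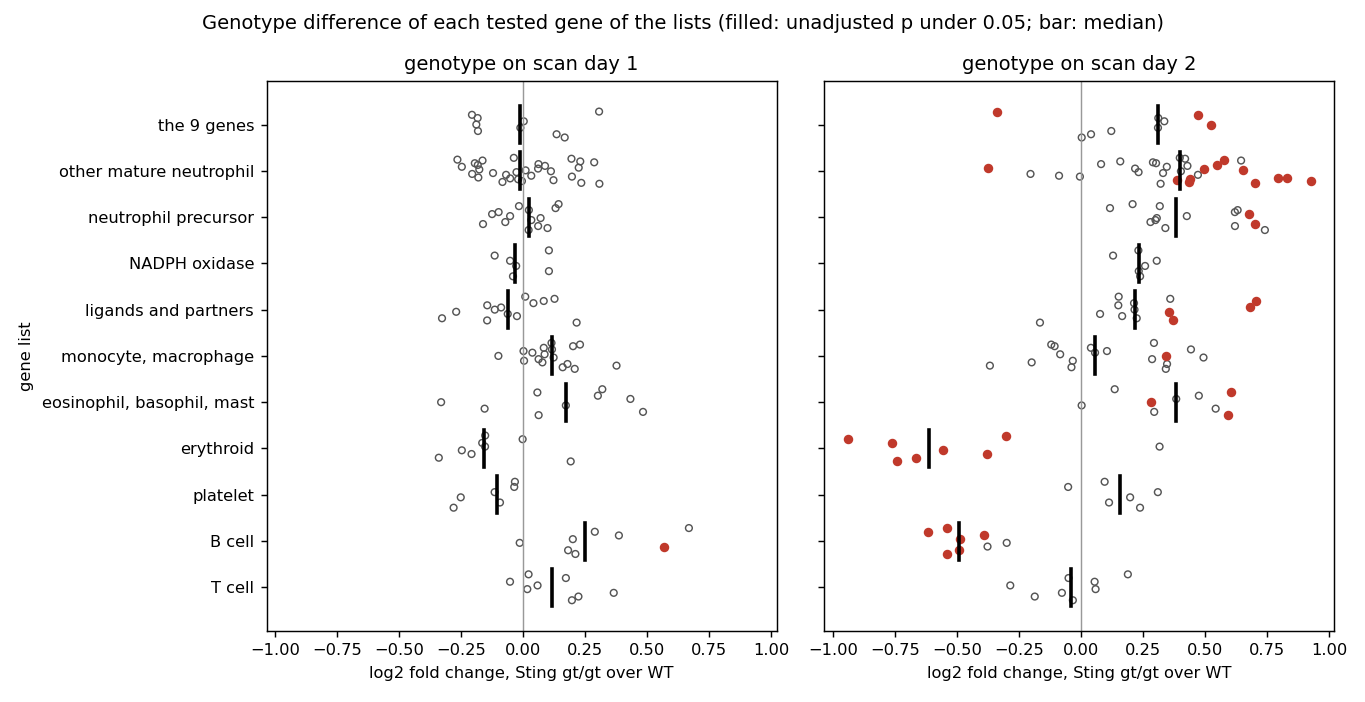
Log2 fold change of Sting gt/gt over WT (horizontal axis) for each tested gene of each list (rows) on scan day 1 and scan day 2; filled points are past an unadjusted p under 0.05 in limma and black bars are medians. Neutrophil lists centre near 0 on day 1 and above 0 on day 2, while all B cell markers and all but 1 of the erythroid markers lie below 0 on day 2.

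Markers of other cells moved too, which matters in a mixture of cells. Of the erythroid markers 7 of 8 tested were below 0 (median -0.38), and Tfrc, the transferrin receptor (-0.52, unadjusted limma p = 0.0418, exact p = 0.0641), was past the unadjusted threshold. The t-test, both slide blocks and 9 of 14 fits with an array left out lost the Tfrc call. On day 2, 7 of 8 were past it, all lower (median -0.61), beside 12.3% of all genes past it and lower. Over all arrays their summed signal, led by Slc4a1, was 346 to 493 times the 75th percentile for WT (median 389) and 288 to 531 for Sting gt/gt (median 357). On day 2 this sum was 346 to 437 in WT and 310 to 357 in Sting gt/gt, with little overlap. On day 1 the WT range, 374 to 493, lay inside that of Sting gt/gt, 288 to 531. B cell markers had a median of 0.25 on day 1, with 1 of 8 past the threshold, beside 3.86% of all genes. On day 2 the median was -0.49, with 6 of 8 past it and lower, beside 12.3% of all genes. For the difference between days 7 of the 8 were past an unadjusted p under 0.05, beside 18% of all genes, with a median of -0.76. Their summed signal, led by Cd79b, was 129 to 181 in WT and 104 to 122 in Sting gt/gt on day 2, with no overlap. On day 1 it was 102 to 141 and 108 to 154, with overlap. Slide and genotype cannot be told apart on day 2 for these markers either.

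Among monocyte and macrophage markers, Ms4a6c (0.28, unadjusted limma p = 0.0420, exact p = 0.0373) was the single call of 17 (median 0.06), and the replicate block and 7 of 14 fits with an array left out lost it. Their summed signal, led by Ly6c2, ran from 248 to 310 in WT and from 258 to 354 in Sting gt/gt. Markers of eosinophils, basophils and mast cells were all above 0 (9 of 9, median 0.37) with none past the threshold. On day 2, 3 of the 9 were past it, all higher, beside 11% of all genes past it and higher. These were Siglecf, Cpa3 and Gata2, named for that, and the list median was 0.38. Over all arrays the sum of the 9, led by Prg2, was 11.3 to 18.6 in WT and 12.4 to 32.4 in Sting gt/gt. No platelet marker (6 tested, median 0.02, sum led by Pf4 73.2 to 116 in WT and 70.9 to 100.3 in Sting gt/gt) and no T cell marker (8 tested, median 0.04, sum led by Lck 24.3 to 37.0 and 27.0 to 35.6) was past it. Ahsp of the erythroid list and Olfm4 of the precursor list had no tested probe. The part of these cells in the neutrophil values was not tested.

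The deposited series table, which holds the authors' own log2 values of the same arrays, gave much the same genotype differences for the 9 genes, with a median of 0.10 and none past the threshold. It differed in the scan day. No gene of 24909 differed between the days at an adjusted p under 0.05 in that table, against 9659 from the scanner files. S100a8 spanned 16.61 to 16.99 there over all arrays. The turn of Csf3r between days was kept in sign, with 0.23 on day 1 and -0.34 on day 2, but the genotypes overlapped on both days there. How the table was normalized is not given in the sources used here.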

How the data were processed

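Splenocyte RNA of 7 WT and 7 Sting gt/gt mice was measured on 14 one-colour arrays. Per the file headers, the intensity of each spot was background-corrected by Agilent Feature Extraction 11.0.1.1 with no normalization between arrays. The deposited series table holds log2 values made by the authors from the same arrays, and its normalization is not given in the sources used here.

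From the intensity, log2 values were computed, spots marked as outliers were left out, the 75th percentile of each array was subtracted and repeated spots were averaged. Tests took in any probe that Feature Extraction called well above background on 7 or more of 14 arrays, and the brightest such probe by mean stood for its gene. Genes were fitted with limma 3.58.1 in R 4.3.3, with p adjusted by Benjamini-Hochberg, and single genes with exact permutation of labels. The limma code was tested on simulated data. Tables and plots used Python 3.11.15, pandas 2.3.3, numpy 2.4.6, scipy 1.17.1 and matplotlib 3.10.9.

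Genotype was compared over all arrays and within each scan day, and scan days with genotype in the model. Deviations of same-numbered arrays from their group means correlated at 0.16 to 0.53, and at -0.41 to 0.25 once scan-day means were removed, so that this pairing comes with the scan day. Settings tried were other scalings, normexp with an offset of 50, the deposited table, other filters, array weights together with an intensity trend, a t-test, blocks, and leaving out each array.

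The members and the lists were chosen with earlier results of these data known. Apart from the members, genes were named if past an unadjusted p under 0.05 within a list, among the 4 brightest of a neutrophil list, or among the 8 most like the mean z-score, and some of these are not reported here. Genes given as not tested, the brightest genes of other lists, and Itgam for its turn between days were named besides. Proteins were not analysed here.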

Additional observations from a re-analysis of the deposited data

Results flagged for a closer look

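In 36 groups of 7 or 4 arrays, the gap between the farthest array and its neighbour was divided by the range of the group. Dixon's critical values for 7 and for 4 arrays then marked an array far from the others, and chance alone marks about 1 in 20 groups. This found 3. WT replicate 2 was far above the other WT arrays for Cxcr2, at 2.41 (0.611 of the range), and for Fpr1, at 1.87 (0.603). WT replicate 6 was far below the other WT arrays of scan day 2 for Fpr2, at 3.65 (0.910). What set these arrays apart was not tested.

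For 2 of the 9 genes the genotype difference differed between scan days at an unadjusted p under 0.05, as for 18% of all genes, and for neither at an adjusted p under 0.05. For Csf3r the effect on day 2 minus that on day 1 was -0.64 (95% confidence interval -0.96 to -0.32), and for Fpr1 it was 0.50 (0.03 to 0.96). Fpr1 lost the unadjusted call in 3 of 5 other settings and in 7 of 14 fits with an array left out. Slide and genotype coincide on day 2 and cannot be told apart there.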

How the results depend on the processing

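Limits are the number of arrays, 3 a group on scan day 1 and 4 on day 2, and slides that cannot be told apart from genotype on day 2. Settings for the comparisons within each scan day were chosen after seeing the data. Over all arrays, the median of the 9 genes stayed between 0.08 and 0.20 and 0 of 9 were past an unadjusted p under 0.05 with any array left out. In other settings that median ran from -0.025 (slide as fixed block) to 0.22 (array weights and intensity trend). The count over all genes ran from 496 (without Sting gt/gt replicate 6) to 1967 (without replicate 1). It was 868 in the main setting, 1928 in the deposited table and 4311 with array weights and an intensity trend. Slide as random block gave 445, scan day as block 1812 and the replicate block 1415, which shared 704 of the 868. The replicate block lost the calls of Trem3 and Ms4a6c and changed no call of the 9. On day 2 it called the same 3, and 0 of all genes passed the adjusted threshold there, beside 421 without it. Array weights and an intensity trend, changed together, called 2 of the 9, Cxcr2 (0.37) and Mmp9 (0.44). They turned S100a9 to -0.021 and Retnlg to 0.11. Other calls lost were Trem3 (0.50 under median centring, 0.45 without scaling, 0.47 in the deposited table, and in the t-test), Ms4a6c (0.27 under median centring, 0.22 without scaling, and with no filter on dim probes) and Tfrc (in the t-test), and both slide blocks lost these and Stfa3. Single arrays lost Trem3 in 10 of 14 fits, Tfrc in 9 and Ms4a6c in 7. Slpi was gained with the mean of its probes (0.41), with scan day as block and in 5 fits with an array left out. Array weights and an intensity trend gained Slpi (0.56) and Mpo (0.53). Slide as random block turned Csf3r to 0.11 and Fpr1 to -0.048. Slide as fixed block, which rests on the 5 arrays of slides that hold both genotypes, turned Csf3r to 0.24, Cxcr2 to -0.27, Fpr1 to -0.23, Fpr2 to -0.019, Mmp9 to -0.15, Padi4 to -0.025, Slpi to -0.20, Mpo to -0.26 and Ltf to -0.14. Leaving out single arrays took S100a8 from -0.061 to 0.20, S100a9 from -0.066 to 0.19, Csf3r from -0.14 to 0.011 and Retnlg from -0.12 to 0.19. On day 1 the count of genes was 506 to 1608 with an array left out and 595 without scaling. Csf3r, 1 of the 9, was called with normexp (0.26) and without Sting gt/gt replicate 1. Padi4 turned to 0.019 under quantile normalization and to 0.014 in the deposited table, and Fpr2 to -0.071 under median centring and -0.066 without scaling. Single arrays took Cxcr2 from -0.46 to 0.12, Fpr2 from -0.20 to 0.22 and Padi4 from -0.20 to 0.18. On day 2 the count of genes was 4114 to 6985 and that of the 9 was 2 to 7 with an array left out, the 7 without Sting gt/gt replicate 7. Without scaling S100a8 was at -0.0018 and S100a9 at -0.039, and S100a9 was at -0.0022 in the deposited table. Single arrays took Retnlg from -0.020 to 0.43, S100a8 from -0.021 to 0.11 and S100a9 from -0.077 to 0.080. For the difference between days, 4 of the 9 were called under median centring and 1 under quantile normalization, without scaling and in the deposited table, and 1 to 4 with an array left out. S100a8 turned to 0.049 under quantile normalization, 0.032 under median centring and 0.017 in the deposited table, and ran from -0.17 to 0.0032 with an array left out. Csf3r kept its sign and an unadjusted p under 0.05 in every setting (-0.48 to -0.62) and with any array left out (-0.72 to -0.58). Between scan days, 8232 to 9669 genes and 3 of the 9 were called with any array left out, and 0 genes and 0 of the 9 in the deposited table. There Fpr1 turned to -0.047, Fpr2 to -0.15 and Mmp9 to -0.35, and median centring turned Cxcr2 to 0.068 and Padi4 to 0.085. Single arrays took Cxcr2 from -0.25 to 0.093, Fpr2 from -0.0039 to 0.20 and Padi4 from -0.18 to 0.031. Scaling moved the share of calls that were higher in Sting gt/gt: 53.5% over all arrays became 36.0% under median centring, 19.5% without scaling and 63.9% with normexp. On day 1, 72.8% became 59.7% under quantile normalization, 42.7% under median centring, 40.7% without scaling and 61.0% in the deposited table. On day 2, 47.3% became 57.7% under median centring and 31.5% without scaling. Median centring took 42.8% for the difference between days to 64.8% and 44.2% between scan days to 67.7%, where it moved the median of all genes to 0.12 and 0.15. The cause was not tested.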
